A study of Mus musculus with 3 samples.

Results

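Ago2 HITS‐clip peaks were examined at the 3′ ends of annotated transcripts in N2A cells. A peak was taken as terminal when its midpoint lay in the last 150 nt of the longest annotated 3′UTR of a protein-coding gene, on the strand of that gene, and 3′UTRs shorter than 600 nt were not used. Of 2039384 deposited peaks, 9477 met this rule in the windows of 13333 genes. Replicates 1, 2 and 3 held 1360, 3987 and 4130 of them, which was 8.28%, 7.63% and 8.02% of their peaks in these 3′UTRs. Of all peaks deposited for each library they were 0.191%, 0.8% and 0.498%, because replicate 1 had 711377 peaks in all, more than the 498071 of replicate 2, but the fewest in 3′UTRs. The windows stood at 13295 distinct ends, because clustered genes such as the Pcdha protocadherins share their last exon. Of the terminal peaks 21 lay in the windows of several genes and were counted once for each window below. The group was a single one, the mouse neuroblastoma line N2A under basal conditions, with no allele or treatment given in the labels. Cells at about 80% confluency received ultraviolet light at 400 mJ per square cm and then 2 times at 200 mJ per square cm. Ago2 was precipitated with the antibody clone 2D4, and the attached RNA fragments were sequenced. A line is a single tumour-derived culture, and nothing in the labels says that the 3 samples came from separate cultures, so p-values cover only the spread between these samples. The table lists intervals and no read counts, so depth was unknown and confidence intervals cover the counting of peaks or genes only.

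An mRNA ends where the pre-mRNA is cleaved and a poly(A) tail is added. The hexamer AATAAA, or its most common variant ATTAAA, lies shortly upstream of the cleavage site and is bound by the cleavage and polyadenylation complex. Many genes have several such sites, and the use of a proximal site removes the distal part of the 3′UTR. Ago2 carries a miRNA that pairs through its seed, and sites near the ends of a 3′UTR are known to be more effective on average than sites in the middle of a long one. In HITS‐clip, a peak at an annotated transcript end records crosslinked RNA from that stretch, and does not by itself show where the RNA ended.

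The sequences at several of these ends are shown because the terminal peaks of most of these genes ended on or near them. For Ago2 and Tnrc6b this was so in replicate 2. Their edges lay 33 nt before the end in replicate 1, and 100 and 97 nt before it in replicate 3. Each is 30 nt of reference sequence (GRCm38.p6, RefSeq), 5′ to 3′ on the strand of the gene, with the poly(A) signal in capitals. The first 7 belong to genes whose terminal peak ended within 4 nt of the same place in all libraries, and the last 2 to genes with very long 3′UTRs that encode miRNA effector proteins. B4galt5 has neither hexamer in its last 50 nt and is shown as the exception among the 12 genes chosen for their edges.

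Zfp273, chr13:67826973-67827002, plus strand: tttttgtaAATAAAaacaagctgttattaa
Akap11, chr14:78492246-78492275, minus strand: aattattcAATAAAtttaaagaaatgtcaa
Erg28, chr12:85815448-85815477, minus strand: ttatAATAAAtagggaaaccttctattctg
Ckap4, chr10:84526306-84526335, minus strand: AATAAAcacttgagctttgttatgaccttc
Prr11, chr11:87089153-87089182, minus strand: tatgattttATTAAActactgtttatcata
Pdcd4, chr19:53929829-53929858, plus strand: AATAAAacatgtgaaacactgttgattctt
B4galt5, chr2:167298444-167298473, minus strand: tcagtaaaaaatacatattcaataaccaaa
Ago2, chr15:73095844-73095873, minus strand: AATAAAattcctcgtatttacagctgccta
Tnrc6b, chr15:80941056-80941085, plus strand: aagactAATAAAtgtgtttggctgctaagc

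All 9 stretches are the end of an annotated 3′UTR, or stop 1 nt (Ckap4) or 2 nt (Pdcd4) short of it. The first base of the signal lay between 21 and 32 nt from the annotated end in the 8 that hold one. Over all 10068 windows with a signal in the last 50 nt, this distance had a median of 23 nt and quartiles of 21 and 27 nt.

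The first comparison asked how peaks were spread along the last part of the 3′UTR. In replicate 1, 1361 peaks lay in the last 150 nt and 973 in the 150 nt before. In replicate 2 the numbers were 4010 and 3362, and in replicate 3 they were 4192 and 3280. The ratio of the last to the preceding window was thus 1.40, 1.19 and 1.28 in replicates 1, 2 and 3, or 1.29 ± 0.103 (mean ± SD, n = 3). All libraries lay above 1 (exact sign-flip permutation test over libraries, two-sided, p = 0.25). With 3 libraries 0.25 is the smallest p this test can give, so no comparison here could reach 0.05, and the value of every library is given instead. Windows further upstream were close to the preceding one, and between 300 and 600 nt from the end the 150 nt windows of replicate 1 held 969 and 972 peaks, those of replicate 2 held 3100 and 3166, and those of replicate 3 held 3226 and 3229. Relative to the share of 3′UTR length that the last 150 nt make up, the share of peaks was 1.19, 1.1 and 1.17 times as large (1.16 ± 0.0464, SD, n = 3; same test, exact p = 0.25).

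On the opposite strand of the same windows lay 379, 309 and 468 peaks, a background measured in the same libraries. The same strand held 3.59, 13 and 8.96 times as many (8.51 ± 4.71, SD, n = 3; exact sign-flip permutation p = 0.25), so the libraries differed widely in this ratio. It was 5.09 ± 2.17 (SD, n = 3) when the central part had only to overlap the window. Where the window held an exon on the opposite strand, in 856 of the 13333, the ratio was 1.19, 1.73 and 1.48, and elsewhere it was 4.21, 23.2 and 14.0. It also differed between classes of peak width. Terminal peaks of 86 to 200 nt were 8.14, 21.8 and 14.9 times as frequent on the same strand, and peaks of at most 85 nt 1.89, 5.25 and 3.34 times. The few peaks over 200 nt and up to 1000 nt were 3.5, 14 and 6.39 times as frequent there, and for those over 1000 nt the ratio was 1, 0.875 and 0.455. Median width of the terminal peaks was 89, 97 and 99 nt.

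The rise toward the end was not a property of the gene's strand alone. Opposite-strand peaks numbered 287, 250 and 343 in the preceding window, so that their ratio of last to preceding window was 1.32, 1.24 and 1.36. The same-strand ratio exceeded it only in replicate 1, and the log2 difference was -0.02 ± 0.09 (SD, n = 3; exact sign-flip permutation p = 0.75). Among the 11772 ends with no exon of another gene within 300 nt on either strand, the opposite-strand ratio was 1.22, 1.09 and 1.14 and the same-strand ratio 1.41, 1.21 and 1.27. The same-strand ratio was there the higher in 3 of 3 libraries, by 0.17 ± 0.04 on the log2 scale (SD, n = 3; exact permutation p = 0.25). This comparison of strands was added after the values had been seen. The part that read mappability or base composition has in the rise on either strand was not tested.

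**Figure D1:**
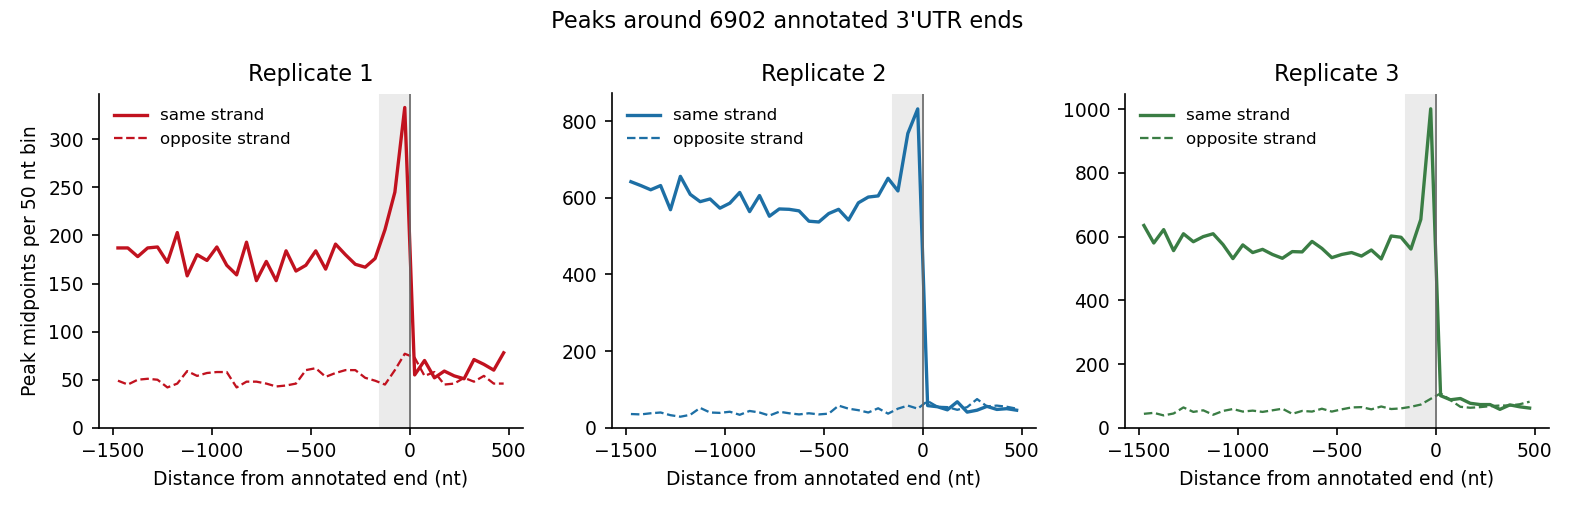
Number of peak midpoints per 50 nt bin (vertical axis, a scale for each replicate) against distance from the annotated end in nt, for 6902 3′UTRs of at least 1500 nt with no same-strand exon in the 500 nt past the end; solid lines are the strand of the gene, dashed lines the opposite strand, and grey marks the last 150 nt. The bin just before the end holds 333, 832 and 1001 peaks in replicates 1, 2 and 3, and the bin just past it 55, 58 and 101.

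At single bins the rise did not have the same width in every library. In 6902 3′UTRs of at least 1500 nt with no same-strand exon in the 500 nt downstream, the last 50 nt held 333, 832 and 1001 peaks. The mean of the bins between 300 and 1500 nt upstream was 176.6, 586.8 and 568.3, which makes the last bin 1.89, 1.42 and 1.76 times as full. On the opposite strand the same ratio was 1.5, 1.27 and 1.72. The same-strand bin 50 to 100 nt before the end held 245, 768 and 654 peaks, all above the upstream mean. The rise was therefore not confined to the last bin. Beyond the end the same-strand count fell to the level of the other strand. The first 150 nt past the end held 177, 160 and 281 peaks on the same strand and 185, 179 and 261 on the opposite strand, while the last 150 nt before it held 784, 2218 and 2216. The last 150 nt thus held 4.43, 13.9 and 7.89 times as many same-strand peaks as the first 150 nt past the end. Just inside the limit that defines a terminal peak, between 100 and 150 nt from the end, lay 206, 618 and 561 peaks, and just outside it, between 150 and 200 nt, lay 176, 651 and 598.

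The 3′ edges of many peaks lay close to the annotated end. Peaks appear to be widened by 30 nt on each side in the deposited table, so the edge of the central part, with 30 nt removed, was used. Among terminal peaks, the 3′ edge lay within 10 nt of the annotated end in 23.4%, 23.1% and 33.9% of replicates 1, 2 and 3 (26.8 ± 6.17%, SD, n = 3). Around a point 300 nt upstream, the same share was 14.4%, 13.2% and 13.3% of the peaks of the 150 nt before that point. The share at the end was the higher in 3 of 3 libraries (exact sign-flip permutation test of the difference, two-sided, p = 0.25). This result rests on the removal of the 30 nt: with the edges as deposited the mean share was 14.06% at the end and 14.65% at the control point. The median 3′ edge of terminal peaks was 42, 41 and 31 nt before the end, and only 15, 22 and 22 peaks reached over 30 nt past it.

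The rule on midpoints limits where such an edge can lie, so the edges were also counted for all same-strand peaks around the 6902 ends, whatever their midpoint. Within 10 nt of the end lay 176, 533 and 769 of the 3′ edges. An interval of the same length 74 to 94 nt before the end held 103, 251 and 259, and the interval 11 to 31 nt past it held 29, 47 and 77. The 3′ edges were therefore 1.71, 2.12 and 2.97 times as frequent at the end as before it, and 6.07, 11.3 and 9.99 times as frequent as past it. The 5′ edges numbered 17, 24 and 34 within 10 nt of the end and 111, 312 and 303 in the interval before. A central part that stops by the annotated end must start before it by its own length. The fall in 5′ edges is therefore no separate result.

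**Figure D2:**
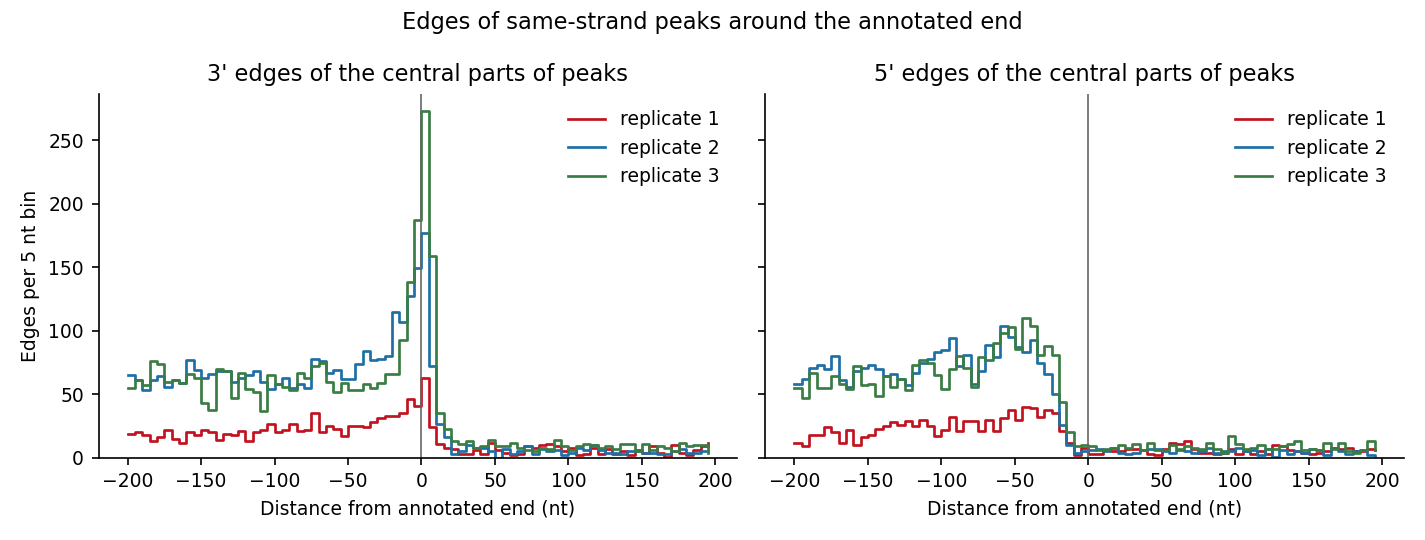
Number of edges of the central parts of same-strand peaks per 5 nt bin (vertical axis) against distance from the annotated end in nt for the same 6902 ends, 3′ edges on the left and 5′ edges on the right, with a line for each replicate. The 3′ edges pile up at the end, with 273 in the 5 nt that start at it in replicate 3, and are few beyond 20 nt past it, while the 5′ edges fall away about 20 nt before it.

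Genes with a terminal peak were compared between libraries next. A terminal peak was present in 1225 windows of replicate 1, or 9.19% (95% Wilson interval 8.71 to 9.69%). Replicate 2 had 2944, or 22.1% (21.4 to 22.8%), and replicate 3 had 3188, or 23.9% (23.2 to 24.6%). In all 3 libraries 511 genes had a terminal peak, a further 1730 had it in 2 and 2364 in 1. The 511 genes were 3.83% of those examined, against 329 genes (2.47%) with a peak in all libraries in the preceding window and 27 (0.203%) on the opposite strand of the last window. Of these 27 windows, 22 held an exon on the opposite strand. The count was limited by replicate 1, which had the fewest 3′UTR peaks. Without it 1898 genes had a terminal peak in both other libraries, which was 64.5% of those of replicate 2 and 59.5% of those of replicate 3. Of the genes of replicate 1, 55.3% were shared with replicate 2 and 56.1% with replicate 3. Confined to peaks of 86 to 200 nt the count was 290, with the last 100 nt as the window it was 313, and with 2 libraries enough it was 2241.

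Terminal peaks seldom stood alone in a 3′UTR. A peak anywhere in the 3′UTR in all libraries was found for 4333 genes (32.5% of those examined), and 11.8% of these had a terminal one in all libraries. Of the 511 genes, 406 (79.5%) also had a peak outside the last 150 nt in all libraries, and only 1 had none outside it in any library. The 3′UTRs of the 511 had a median length of 1899 nt, against 1677 nt over all 13333. By class of length, a terminal peak in all libraries was found in 3.27% of 3′UTRs of 600 to 999 nt (95% Wilson interval 2.70 to 3.96%), 3.43% of those of 1000 to 1999 nt (2.96 to 3.98%), 4.54% of those of 2000 to 3999 nt (3.93 to 5.23%) and 4.47% of those of 4000 nt or more (3.52 to 5.65%). The preceding window, of the same size in every gene, went from 2.04% to 2.89% over these classes. In a bulk sample fewer cells with a transcript and less of it per cell cannot be told apart, and transcript levels were not measured here.

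The terminal windows with a peak more often held a poly(A) signal. Of genes with a terminal peak, 87.1% (95% Wilson interval 85.1 to 88.9%), 87.7% (86.4 to 88.8%) and 87.3% (86.1 to 88.4%) had AATAAA or ATTAAA in the last 50 nt in replicates 1, 2 and 3. Of genes with a 3′UTR peak elsewhere but no terminal peak in that library, 78.4% (77.2 to 79.5%), 76.6% (75.3 to 77.8%) and 75% (73.7 to 76.2%) had it. The difference was 8.73, 11.1 and 12.3 percentage points (10.7 ± 1.81, SD, n = 3; exact sign-flip permutation p = 0.25). The intervals of the groups did not overlap in any library, but they cover the counting of genes only. The hexamer is read from the reference sequence and many genes recur between libraries, so the libraries do not repeat this comparison independently. Whether the annotated ends that lack a signal are used in N2A cells was not tested.

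**Figure D3:**
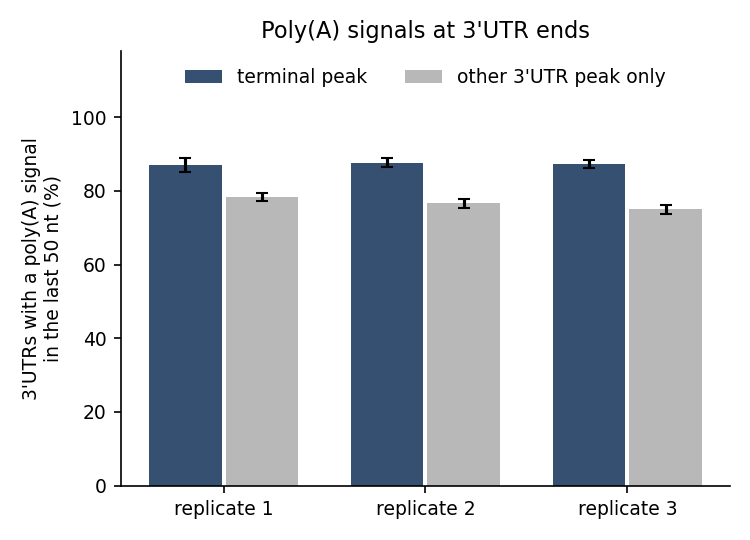
Share of 3′UTRs with a poly(A) signal in the last 50 nt, in percent (vertical axis), for genes with a terminal peak (dark bars) and genes with only other 3′UTR peaks (grey bars) in each replicate; error bars are 95% Wilson intervals. The dark bars stand between 87.1% and 87.7%, above the grey bars at 75% to 78.4%.

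The hexamers were also counted apart. Either was found in 92.8% of the 511 genes with a terminal peak in all libraries (95% Wilson interval 90.2 to 94.7%), 73.5% (71.1 to 75.7%) of the 1420 genes with another 3′UTR peak in all libraries and no terminal peak in any, and 75.5% of all 13333 windows. AATAAA was held by 79.1% (75.3 to 82.4%), 58.0% (55.4 to 60.6%) and 61.1% of these sets. ATTAAA, with or without AATAAA in the same window, was found in 19.2%, 19.1% and 18.6%. In windows that lacked AATAAA the variant was found in 70 of 107 of the first set, or 65.4% (56 to 73.8%), 219 of 596 of the second, or 36.7% (33 to 40.7%), and 1915 of 5180 of all, or 37%. In the 474 of the 511 genes with either hexamer, the median distance of the signal from the end was 24 nt. The central part of a terminal peak covered the whole hexamer in 27.6%, 31% and 40.3% of the peaks whose window had a signal, and lay wholly upstream of it in 60.2%, 60.8% and 52.6%.

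The windows also differed in base composition and in other motifs. In genes with a terminal peak A and T made up 66.2%, 64.9% and 64.6% of the last 150 nt, and in genes with other 3′UTR peaks only 63.5%, 62.3% and 62.2%. The difference was 2.55 ± 0.135 percentage points (SD over libraries, n = 3; exact sign-flip permutation p = 0.25), while windows of either kind varied by 7.64 to 8.61 percentage points (SD over genes). The motif TGTANATA, which Pumilio proteins bind, lay in the last 150 nt of 12.3% of the 511 genes (95% Wilson interval 9.76 to 15.5%), 6.13% of the 1420 genes (4.99 to 7.50%) and 6.42% of all windows. The AU-rich pentamer ATTTA lay in 40.7% (36.5 to 45%), 29.6% (27.3 to 32%) and 31.7%. Motifs were searched on the strand of the gene only, overlaps between motifs were not removed, and their relation to the difference in A and T was not tested. In the 20 nt of genome past the end, at least 12 were A in 2.61%, 1.15% and 1.19% of genes with a terminal peak and in 3.99%, 5.06% and 5.34% of genes with other peaks only.

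Shorter annotated transcripts gave a second kind of end. In 2648 of the genes, 3191 ends of other protein-coding transcripts lay inside the longest 3′UTR, at least 300 nt before its end. The 150 nt before these interior ends held 12.9, 42.8 and 43.2 peaks per 100 windows, and the distal windows of the same genes 11.2, 36.3 and 34.3. The distal end thus had 0.84 ± 0.039 times the density of the interior ends (SD, n = 3), with 0.869, 0.848 and 0.793 in replicates 1, 2 and 3 (exact sign-flip permutation p = 0.25). A peak in all libraries was found at the distal end of 114 of these genes (4.31%) and at an interior end of 159 (6%), with 16 genes in both counts, but some genes have several interior ends and only 1 distal end. Compared with the 150 nt before them, interior ends had 1.1, 1.1 and 1.17 times as many peaks. The 3′ edge lay within 10 nt of an interior end for 18%, 18% and 18.6% of its peaks. A poly(A) signal was present at 37.3% of the interior ends and at 76.1% of the distal ends of the same genes.

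In some genes the edge of the terminal peak was the same in all libraries to within a few nt. Across the 511 genes, with the peak nearest the end taken in each library, the 3′ edges spread over a median of 52 nt, and in the 329 genes of the preceding window, measured against its own end, over 73 nt. The spread was at most 10 nt in 46 of the 511 genes (9%) and in 14 of the 329 (4.26%). All edges lay within 10 nt of the annotated end in 46 genes (9%), and within 10 nt of the end of the preceding window in 5 genes (1.52%). The 12 genes with the smallest spread are described next, and that choice is by its construction a choice for narrow spread. In 11 of them every edge lay between 5 nt before and 7 nt past the annotated end. The peak nearest the end was taken in each library, and ties were broken by this distance. Closeness to the end is therefore not independent of the choice.

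Zfp273, a zinc-finger protein gene, had its edge 3 nt past the end in every library. It belongs to a large family of related genes, and how reads shared between copies were assigned is not given in the sources used here. For Akap11, which anchors protein kinase A, the edges were 0, -1 and 0 nt from the end in replicates 1, 2 and 3, minus meaning before it. For Erg28, a sterol synthesis gene, they were 1, 1 and 2 nt. The central parts in Erg28 were of unequal length, since the deposited peaks were 80, 209 and 140 nt wide, and only their 3′ edges coincided. B4galt5, a galactosyltransferase that makes lactosylceramide, had edges at 1, 1 and -1 nt. It is the gene printed above with no signal in its last 50 nt. Ckap4, a membrane protein of the endoplasmic reticulum, had edges at 2, 0 and 1 nt. Prr11, a gene linked to the cell cycle, had them at 5, 6 and 4 nt.

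The exception was Ndrg2, a gene of the N-myc downstream-regulated family, whose edges lay at -38, -36 and -38 nt. Its signal starts 33 nt from the end, so the central parts of its peaks stopped just upstream of the hexamer in every library. The deposited intervals, padding included, covered the hexamer. Cpeb2, a protein that binds cytoplasmic polyadenylation elements, had edges at 5, 2 and 5 nt. Those of Trp53bp2, which binds p53 family proteins, were at 4, 5 and 7 nt. Atad2b, a bromodomain ATPase, had them at -5, -3 and -1 nt and Kremen1, a receptor of Wnt inhibitors, at 4, 3 and 7 nt.

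Pdcd4, an inhibitor of translation initiation and a known target of miR-21, was to be described as such and was also among these 12. Its longest 3′UTR is 717 nt long and ends at chr19:53929860. The edges of its terminal peak were -5, -5 and -1 nt from the end, and 2, 7 and 8 peaks lay in the whole 3′UTR in replicates 1, 2 and 3. No match to the miR-21a-5p seed lay in the 75 nt covered by its terminal peaks in all libraries, padding included. Nudt21, which encodes a subunit of cleavage factor I and was to be described too, had 0 peaks in its longest 3′UTR of 4187 nt in any library.

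**Figure D4:**
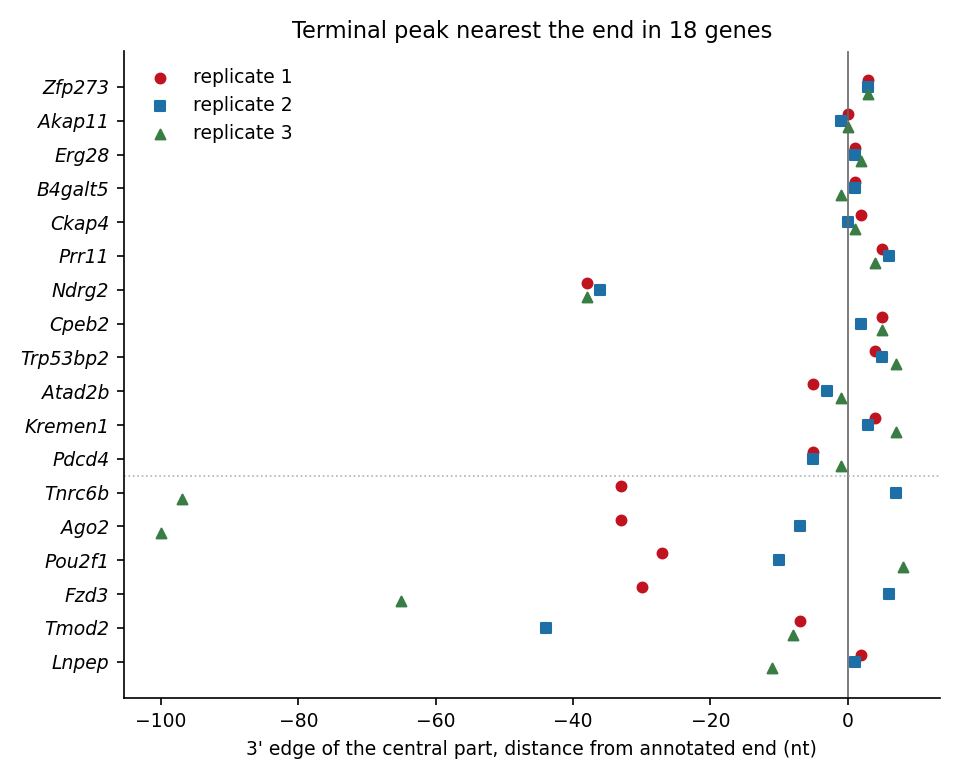
Distance of the 3′ edge of the central part from the annotated end in nt (horizontal axis, negative before the end) for the terminal peak nearest the end in each replicate, for the 12 genes with the smallest spread (above the dotted line) and the 6 with the longest 3′UTRs (below it). In the upper group all genes but Ndrg2 sit between -5 and 7 nt, and in the lower group the edges of a gene differ by 13 to 104 nt.

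Very long 3′UTRs also had terminal peaks. The 6 longest among the 511 genes measured 8339 to 11609 nt. Tnrc6b, a partner of Argonaute in silencing, had the longest, and its terminal edges lay at -33, 7 and -97 nt. Ago2 itself followed with 11064 nt and edges at -33, -7 and -100 nt. Pou2f1, a POU-domain transcription factor, had edges at -27, -10 and 8 nt. For Fzd3, a Frizzled receptor of Wnt ligands, they were -30, 6 and -65 nt. Tmod2, a neuronal tropomodulin that caps actin filaments, had edges at -7, -44 and -8 nt, and Lnpep, an aminopeptidase, at 2, 1 and -11 nt.

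The listed gene groups were read against the 3.83% of all genes with a terminal peak in all libraries and the 32.5% with any 3′UTR peak in all libraries. Of miRNA machinery genes 3 of 10 had a terminal peak in all libraries, and 7 had a 3′UTR peak. Beside Ago2 and Tnrc6b this was Xpo5, the exporter of pre-miRNAs, with edges at -8, -38 and -26 nt. Of deadenylation and poly(A)-binding genes the counts were 3 and 13 of 16. Cnot4 had edges at 12, 5 and 19 nt, Cnot7, a deadenylase subunit, at -77, -9 and 6 nt, and Pan3 at -102, -16 and -13 nt. Of cleavage and polyadenylation genes they were 1 and 11 of 16. The 1 was Cpsf6, the partner of Nudt21 in cleavage factor I, with edges at -89, -3 and 8 nt.

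Of neuronal cytoskeleton genes 3 of 13 had a terminal peak in all libraries and 7 had a 3′UTR peak. They were Map1b, a microtubule-associated protein (edges at -46, -24 and -17 nt), and the collapsin response mediators Dpysl2 (-49, -19 and -6 nt) and Dpysl3 (-34, -34 and 0 nt). Of RNA-binding protein genes the counts were 2 and 18 of 20, with Elavl1 at -12, -5 and 18 nt and the neuronal Elavl4 at -28, -13 and -19 nt. Of G1/S regulators they were 2 and 15 of 18, with the cyclin-dependent kinase inhibitor Cdkn1b at -12, 11 and 10 nt and the transcription factor E2f4 at -19, -109 and 3 nt. The groups were small and their 3′UTR peaks were frequent, so the shares are given as descriptions only.

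Markers of the labelled cell type were checked in the same windows. Of 11 markers of neuroblastoma and sympathetic neurons with a 3′UTR of at least 600 nt, 10 had peaks in the 3′UTR in every library and 2 had terminal ones in every library, Elavl4 and the transcription factor Hand2 (edges at -117, -105 and 7 nt). Of 23 markers of 7 other cell types, myeloid, lymphoid, erythroid, oligodendrocyte, astrocyte, hepatocyte and muscle, 3 had peaks in the 3′UTR in every library and 0 had terminal peaks in every library, while 3 had them in a single library. Among them were the myeloid marker Ptprc, with 1, 3 and 3 peaks in its 3′UTR, and the oligodendrocyte marker Mbp, with 3, 2 and 8. The defining markers Csf1r, Itgam, Mog and Gfap were at 0 in every library. The part of such transcripts in the results above was not tested.

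The last comparison asked whether terminal peaks were richer in miRNA seed matches than the other peaks of the same 3′UTRs. Mature sequences were held for 13 of 14 listed families (RefSeq, GRCm38.p6), and not for mmu-miR-124-3p. Those of the families named below are printed with the seed, bases 2 to 8, in capitals.

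mmu-miR-92a-3p: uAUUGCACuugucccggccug
mmu-miR-23a-3p: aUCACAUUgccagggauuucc
mmu-miR-181a-5p: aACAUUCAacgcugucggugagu
mmu-miR-30a-5p: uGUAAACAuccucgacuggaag
mmu-miR-26a-5p: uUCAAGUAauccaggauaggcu
mmu-miR-21a-5p: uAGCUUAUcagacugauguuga
mmu-miR-16-5p: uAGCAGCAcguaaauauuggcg
mmu-miR-9-5p: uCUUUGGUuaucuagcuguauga

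Sequence was counted as under a peak over the whole deposited interval, with the 30 nt on each side included. Matches to the 13 seeds numbered 206, 681 and 615 under terminal peaks, or 1.74, 1.89 and 1.71 per kb. Under the other peaks of the same genes they stood at 1.75, 1.82 and 1.64 per kb. The ratio was 0.99, 1.04 and 1.04 in replicates 1, 2 and 3 (1.02 ± 0.0264, SD, n = 3; exact sign-flip permutation p = 0.5), and lay on both sides of 1. Its direction depended on the setting. For peaks of 86 to 200 nt it was 1.07 ± 0.0218 (SD, n = 3), and for a window of the last 200 nt 1.07 ± 0.0347, but 0.92 ± 0.0715 when the central part had only to overlap the window. With only the sequence of the central parts counted it was 0.961 ± 0.0798 (SD, n = 3; exact permutation p = 1).

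The families moved apart from each other, in the deposited intervals. The miR-25/32/92 family was at 1.43, 1.52 and 1.66 in replicates 1, 2 and 3, the miR-23 family at 1.51, 1.41 and 1.54, the miR-181 family at 1.16, 1.54 and 1.55, and the miR-30 family at 1.53, 1.12 and 1.3. These 4 were above 1 in every library. Below 1 in every library were 5 families, among them miR-9-5p (0.535, 0.494 and 0.727) and miR-15/16 (0.571, 0.783 and 0.632). The same 7-mers were not evenly spread along 3′UTRs in general. Over all 13333 windows, with no peak used, their density in the last 150 nt over that in the rest was 1.55 for miR-25/32/92, 1.46 for miR-23, 1.40 for miR-30, 1.31 for miR-181, 0.838 for miR-15/16 and 0.680 for miR-9-5p. Measured against this ratio, 0 of 13 families were higher under terminal peaks in every library, and 4 were lower in every library. A and T made up 62.8% of all terminal windows and 56.7% of the rest of the 3′UTRs.

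**Figure D5:**
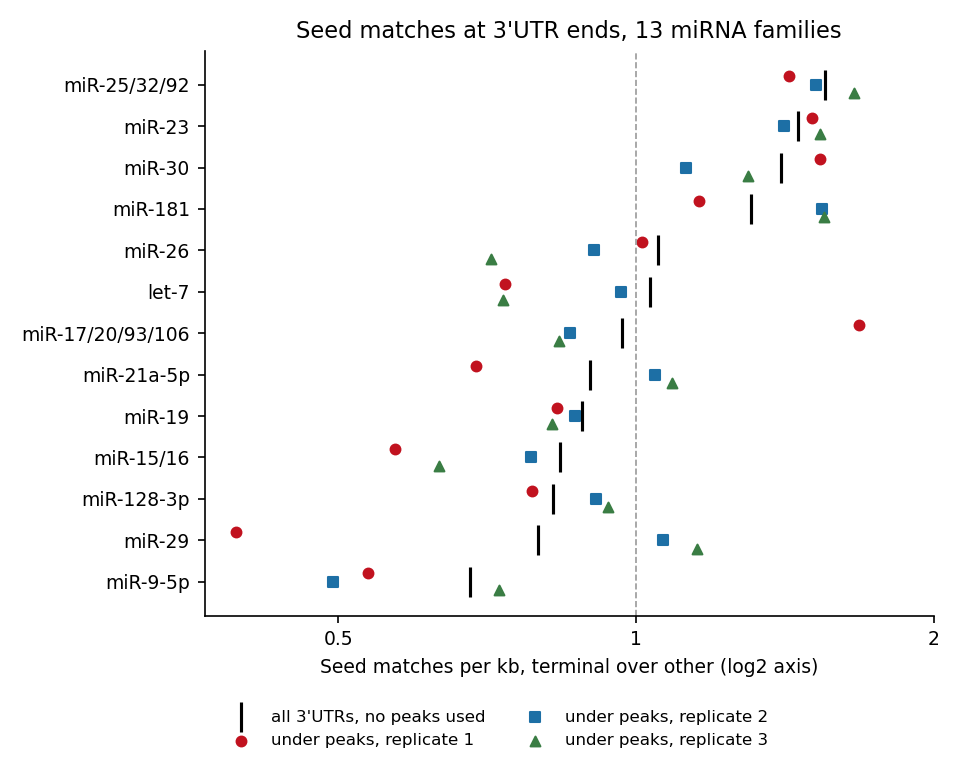
Density of seed matches in the deposited intervals of terminal peaks over that of other peaks of the same 3′UTRs (points, a symbol for each replicate) and in all terminal windows over the rest of the 3′UTRs with no peak used (black ticks), on a log2 axis, for 13 miRNA families. For miR-25/32/92 the points lie at 1.43 to 1.66 around a tick at 1.55, and no family has all 3 points to the right of its tick.

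Seed matches covered in all libraries were few. With the deposited intervals, padding included, terminal peaks of every library shared some nucleotides in 470 of the 511 genes, with a median length of 70 nt. Within 200 nt of the end these stretches held 63 matches in 56 genes, 23 of them followed by an A, and 12 each belonged to the miR-23 and miR-181 families. The miR-21a-5p seed had 3 of them, in Glis2, Slc25a30 and Trpm7. With the central parts alone, 299 genes had such a stretch, of a median length of 24 nt, and 21 of the 63 matches in 20 genes lay wholly in it. Of the 3 for miR-21a-5p, the 1 in Glis2 did. The matches in Atad2b, a gene named above, and in Glis2, a zinc-finger protein gene chosen after its values were seen, are printed in capitals because the central part of a terminal peak covered them in every library.

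Atad2b with miR-26a, chr12:5047358-5047387, plus strand: ctgctgtgaaaTACTTGAataaagatgata
Glis2 with miR-21a-5p, chr16:4615854-4615883, plus strand: aaaaaagagagATAAGCTaatgactataac

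Both matches are followed by an A. That in Atad2b starts 26 nt from the annotated end, and its last base is the first A of the poly(A) signal of that gene, which starts 20 nt from the end. That in Glis2 starts 93 nt from the end. A match to the letters of a seed is a description and does not show that the miRNA was bound there.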

How the data were processed

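Peaks were called in each sample by the authors and deposited as 1 table of intervals, each with its strand, a score and its sample. No unit is stated for the authors' score, which was 60 for 95.3% to 96.8% of the terminal peaks and was not used. The submitters' processing notes name FastQC, cutadapt, STAR and mm10. The peak caller, its threshold and the assignment of reads with several matches are not given in the sources used here. Peaks off the primary chromosomes (1021) were left out. Padding of 30 nt was inferred from the table and affects all edges. Seed matches were counted in the deposited intervals, padding included.

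3′UTRs came from GENCODE mouse M21, without the stop codon, as the longest per gene: 13333 of 21028 had at least 600 nt. Their sequences, read from GRCm38.p6, were identical to the end of the GENCODE transcript in all 13333. Libraries were tested by an exact sign-flip permutation test, two-sided. Wilson intervals are at 95%. Calculations were tested on simulated peaks. Named genes were those with the smallest spread of edges (12), the longest 3′UTR (6), up to 4 per listed group, Pdcd4 and Nudt21. Members, lists and tests were chosen with earlier results of these data known. Alternatives were each replicate left out, peak width, overlap rule, window, minimum length, transcript set, overlapping genes, number of libraries, hexamer, background, edge rule and 8mer sites. Calculations ran in Python 3.11.15 with pysam 0.24.0, scipy 1.17.1, pandas 2.3.3, numpy 2.4.6 and matplotlib 3.10.9. Some single genes and sequences are not reported here.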

Additional observations from a re-analysis of the deposited data

How the results depend on the processing

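Over 18 other settings and 105 values, 98 kept their direction or, for the count of genes, stayed within 1.5 times. The count of genes with a terminal peak in all libraries moved from 511 to 290 with peaks of 86 to 200 nt, to 313 with the last 100 nt and to 2241 with at least 2 libraries. With 1 replicate left out it lay between 678 and 1898, the highest without replicate 1. The share of terminal peaks with an edge near the end was 14.06% with the edge as deposited, against 14.65% at the control point, so its direction was reversed. That setting keeps the 30 nt of padding and moves every edge outward by construction. Of the values that kept their direction, the ratio of same to opposite strand moved over 1.5 times, from 8.51 to 5.09 when the central part had only to overlap the window, to 15 with peaks of 86 to 200 nt and to 13.7 in windows without exons of another gene. The share of edges near the end was 17.1% within 5 nt, a narrower limit by construction. The seed ratio became 0.92 when the central part had only to overlap the window and 0.961 with only the sequence of the central parts counted, an alternative chosen after seeing the data, and the cause was not tested. Leaving out transcripts with an unknown end, added after the data were seen, changed no direction. All tests compared values within each library, and there is no other group whose replicates could be paired with these. With 2 libraries the smallest exact permutation p is 0.5. Read depth was unknown, so windows without a peak cannot be called unbound.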
